A study of Mus musculus with 12 samples.

Results

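Colony-stimulating factors are secreted proteins that keep myeloid cells alive, make them divide and direct how they mature. The genes described here are 3 ligand genes, Csf1, Csf2 and Csf3, and 4 receptor genes, Csf2ra, Csf2rb, Csf2rb2 and Csf3r. They were chosen by name, as every row of the deposited m6A peak lists whose gene is one of these 7. All 7 were found, with 22 of the 41153 peaks in the Mettl3 knockout list and 23 of the 36682 peaks in the wild-type list. The gene of the receptor that binds the Csf1 product was not analysed here.

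N6-methyladenosine (m6A) is a methyl mark on adenosines of messenger RNA, most of it placed by the enzyme complex that METTL3 drives, and it is known to bear on how long a transcript lives and how well it is translated. The study asked through which transcripts METTL3 acts on the inflammatory response of microglia, the resident macrophages of the brain. Its cells were BV2, an immortalised mouse microglial line, either with Mettl3 knocked out (KO) or wild type (WT). All of them, WT included, had been given lipopolysaccharide (LPS), the bacterial cell wall component that Toll-like receptor 4 senses, so no untreated level exists here. Each genotype had 3 libraries from an m6A antibody pull-down (IP) and 3 from the input RNA, 12 in all. Whether the KO cells were a single clone is not given in the sources used here, nor is the LPS dose or time.

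The strength of a peak is given below as its deposited log2 fold change, read here as its IP over input enrichment. The authors computed it together with the adjusted p. There is 1 list per genotype and no value per library, so no spread between replicates can be given and no difference between KO and WT was tested. Depth per library is unknown. Input RNA was not analysed either, so a gene without a peak may have less m6A or less RNA, and these cannot be told apart. The difference KO minus WT carries a shift that most genes share: its median was -0.25 over the 12320 genes that both lists name. Mettl3 itself had 6 peaks in the KO list and 3 in the WT list. A peak does not measure the amount of RNA or protein, so these counts do not check the knockout. Of 14 microglial and macrophage marker genes, 13 had a peak in the KO list and 13 in the WT list, the exception in both being P2ry12. Of 12 neuronal and neuroblastoma markers, looked up because the extraction protocol speaks of neuroblastoma cells, 1 (Tubb3) had a peak in either list.

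The main picture was as follows. Csf1 was the member with the strongest peaks by far, in KO as in WT cells. Csf2 and Csf3 each had a peak in WT cells and none in KO cells. The 4 receptor genes were marked weakly in both genotypes, with strongest peaks below 2-fold in KO cells and between 1.65-fold and 2.13-fold in WT cells. Over all member peaks, 2 of 22 in the KO list reached 2-fold enrichment, against 24.2% of all KO peaks, and 5 of 23 in the WT list, against 37.4% of all WT peaks.

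**Figure D1:**
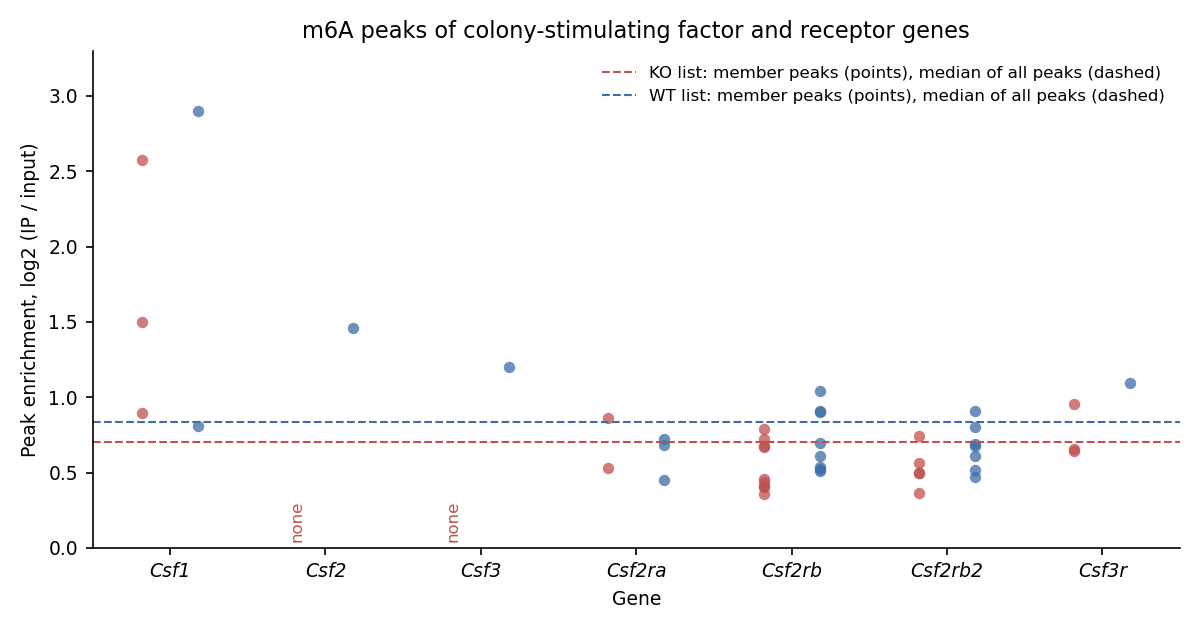
Enrichment of every listed peak (log2 of IP over input, vertical axis) for each of the 7 genes, KO list in red on the left and WT list in blue on the right of each gene; dashed lines are the medians of all peaks in the KO list (0.70) and the WT list (0.83). Csf1 holds the highest points, Csf2 and Csf3 have none in KO, and most receptor peaks lie near or below the medians.

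Sequence near a peak can be shown only for the start of each gene, where RefSeq windows of assembly GRCm38.p6 were matched by symbol for 5 of the 7 genes. The first 50 transcribed bases were searched, on the sense strand only, for the 12 forms of the m6A consensus named in the series text, which are a pair of purines, then AC, then any base but G, such as GGACT. Such a form was present in 44.6% of all 32851 windows of this kind. Csf2 had 1 and Csf2ra had 3, and the first 30 bases of each are shown because they are the only member windows with a match, which is in capitals.
Csf2 (chr11:54249870-54249899, minus strand): ggtcAGACTgcccaggcagggtgggaaagg
Csf2ra (chr19:61228389-61228418, minus strand): gggAGACAgacGGACAgacggacGGACAca
Neither start lay in a listed peak of its own gene. For Csf2 this was fixed in advance for any peak within the listed gene. The lists start that gene at 54249667, so the bases shown lie upstream of it. The only Csf2 peak began 175 bases from that listed start, and thus further from the bases shown. The first Csf2ra peak began 2233 bases from its listed gene start in KO and 2283 bases in WT. The windows of Csf1, Csf2rb2 and Csf3r held none of these letters. The RefSeq start of a gene can differ from the start that the lists give, and a match is a description of the letters, not a mapped site.

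Csf1 encodes macrophage colony-stimulating factor, the growth and survival factor of macrophages and microglia. On chromosome 3 the lists place it at 107741048 to 107760469, minus strand. In KO cells it carried 3 peaks. The strongest ran from 107741048 to 107747901, assigned to the 3' untranslated region (UTR), with a log2 of 2.57, or 5.95-fold. A coding-exon peak next to it, from 107747977 to 107750840, had a log2 of 1.50, and a 5' UTR peak from 107760239 to 107760463 had 0.90. In WT cells there were 2 peaks. The 3' UTR peak, from 107741048 to 107750815, had a log2 of 2.90, or 7.45-fold, and the 5' UTR peak, at exactly the same place as in KO, had 0.81. So the 3' part of Csf1 was covered as 1 stretch in WT and as 2 in KO, over almost the same bases: the peaks spanned 51.2% of the gene in KO and 51.5% in WT. The adjusted p of the 3' peaks and of the KO coding-exon peak is listed as 0, and that of the 5' peak was 6.81e-07 in KO and 6.10e-06 in WT.

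The strongest Csf1 value was lower in KO, with a KO minus WT log2 of -0.32, close to the shift of all genes: 44.2% of genes had a more negative difference. The peaks compared differ in extent, since the KO peak covers 70.2% of the WT peak, which also takes in the coding-exon stretch. The KO coding-exon stretch, which WT does not list on its own, lay below the WT peak that contains nearly all of it (KO minus WT, -1.40). It covers only 29.1% of that WT peak, so the value sets a part against a whole. The WT enrichment over those bases alone is not listed. At the gene start the order was the opposite, with KO higher by 0.09. Ranked by strongest peak, Csf1 stood at place 577 of 13027 genes in KO and at place 1354 of 13363 in WT, that is, above 95.6% of marked genes in KO and above 89.9% in WT. Its position among marked genes was therefore higher in KO although its value was lower. Restricted to peaks of at most 1000 bases, only the 5' UTR peak remains, so the sign of the Csf1 difference turns to 0.09.

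**Figure D2:**
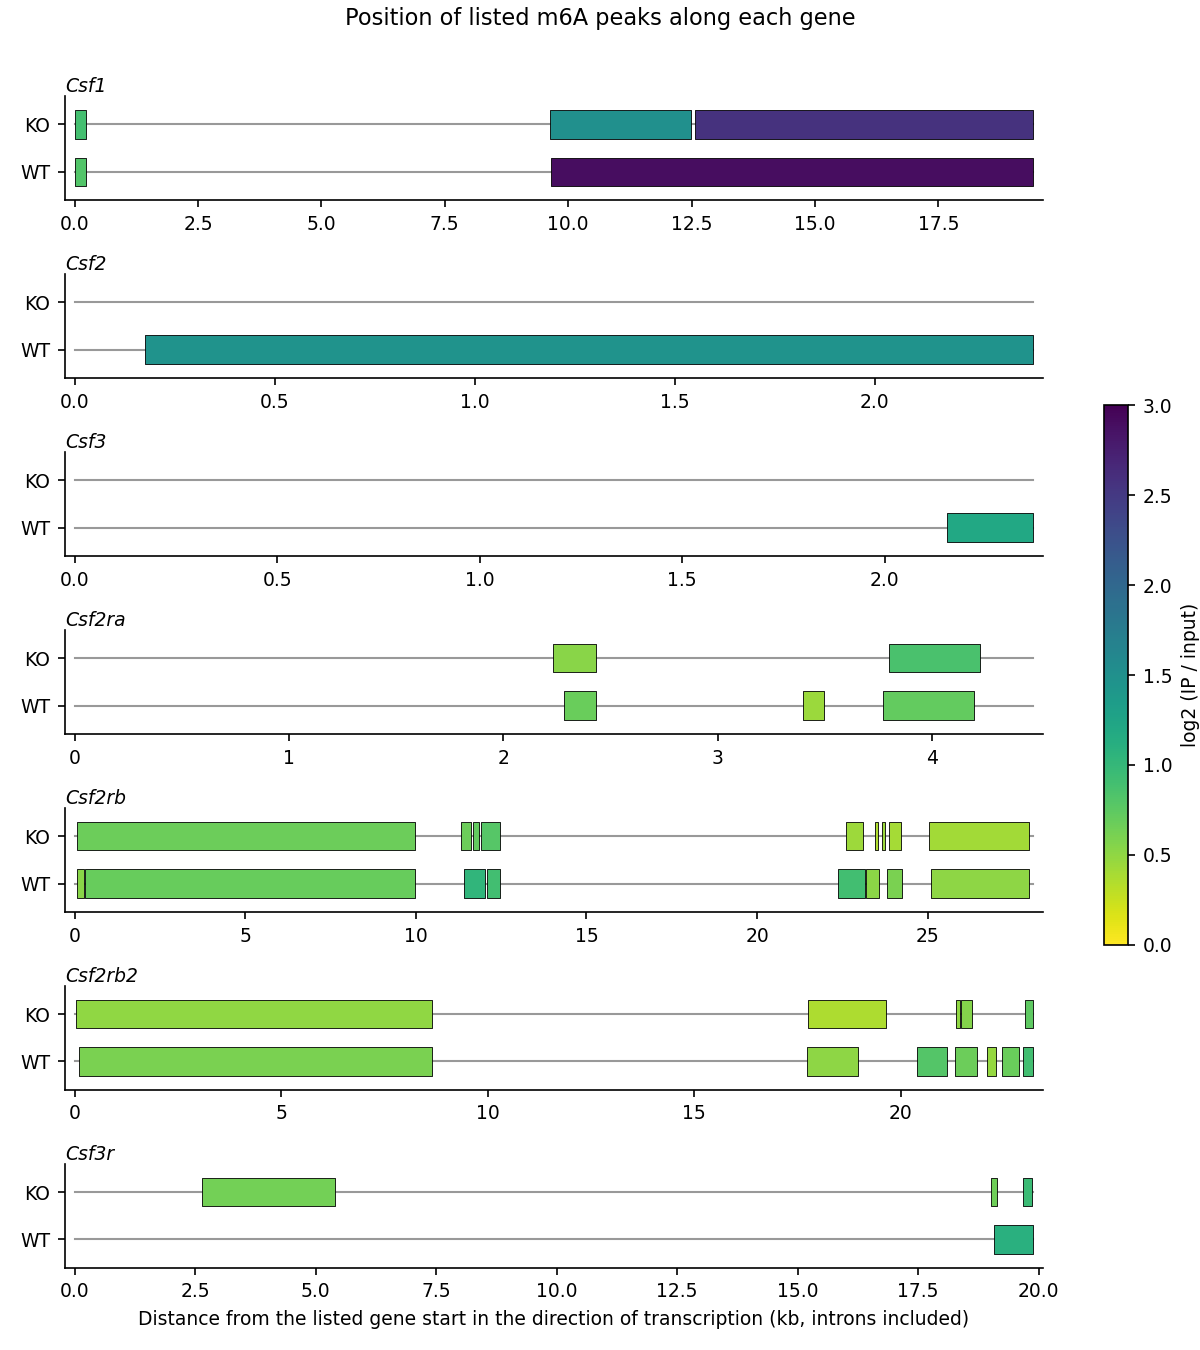
Listed peaks along each of the 7 genes, from the gene start (left) in the direction of transcription, in kilobases with introns included; KO is the upper row and WT the lower row, and colour gives the log2 of IP over input. The 3' stretch of Csf1 is split in KO, Csf2 and Csf3 have no KO peak, and Csf2rb and Csf2rb2 are marked at similar places in both rows.

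Csf2 and Csf3 encode the granulocyte-macrophage and the granulocyte colony-stimulating factor, cytokines that LPS is known to induce and whose short-lived mRNAs carry AU-rich elements in the 3' UTR. Neither had a peak in the KO list, on either strand and under any gene name, across its listed span. In WT cells, Csf2 had 1 peak on chromosome 11, at 54247271 to 54249492 (minus strand). It was assigned to the 3' UTR, and its log2 was 1.46 (2.75-fold) at an adjusted p of 6.22e-12. It spanned 92.7% of the gene, introns included, and ended at the gene's last base. Csf3 had 1 WT peak, narrower at 213 bases, on chromosome 11 at 98703417 to 98703629 (plus strand). It was assigned to the 3' UTR, ended at the gene's last base as well, and had a log2 of 1.20 (2.30-fold) with an adjusted p of 6.14e-205.

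Of the 7 members, 2 were listed in WT only, beside 7.41% of all 14070 genes with a peak, and 0 were listed in KO only, beside 5.02%. Among peaks of at most 1000 bases, Csf2 was in neither list. Neither WT value was high. Csf2 stood above 54.3% and Csf3 above 42.5% of marked WT genes. Among the 1043 genes listed in WT only, they ranked 574 and 677 by strongest log2. Of 1056 other genes whose strongest WT value lay within 0.1 of that of Csf2, 7.39% had no KO peak, and of 1466 such genes around Csf3, 5.93%. By adjusted p, however, Csf3 ranked 6 of the 1043, while Csf2 ranked 280. The genes with the nearest peak on each side of Csf3, named by position after the values were seen, were the same in both lists. On one side it was Psmd3, a proteasome subunit gene, whose peak ended 5283 bases away in both lists and had a log2 of 0.69 in KO and 0.72 in WT. On the other side it was Med24, a Mediator subunit gene on the other strand, but its nearest peak began at different places. That peak lay 961 bases away with a log2 of 0.67 in KO and 5240 bases away with 0.73 in WT, so these values are not of 1 shared position. Around Csf2 the neighbours, named in the same way, were less alike. On one side the gene was P4ha2 in KO (127982 bases away, 0.82) and Slc22a4 in WT (219183 bases away, 1.32). On the other side it was Fnip1, 188531 bases away in both, with 3.01 in KO and 1.47 in WT.

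**Figure D3:**
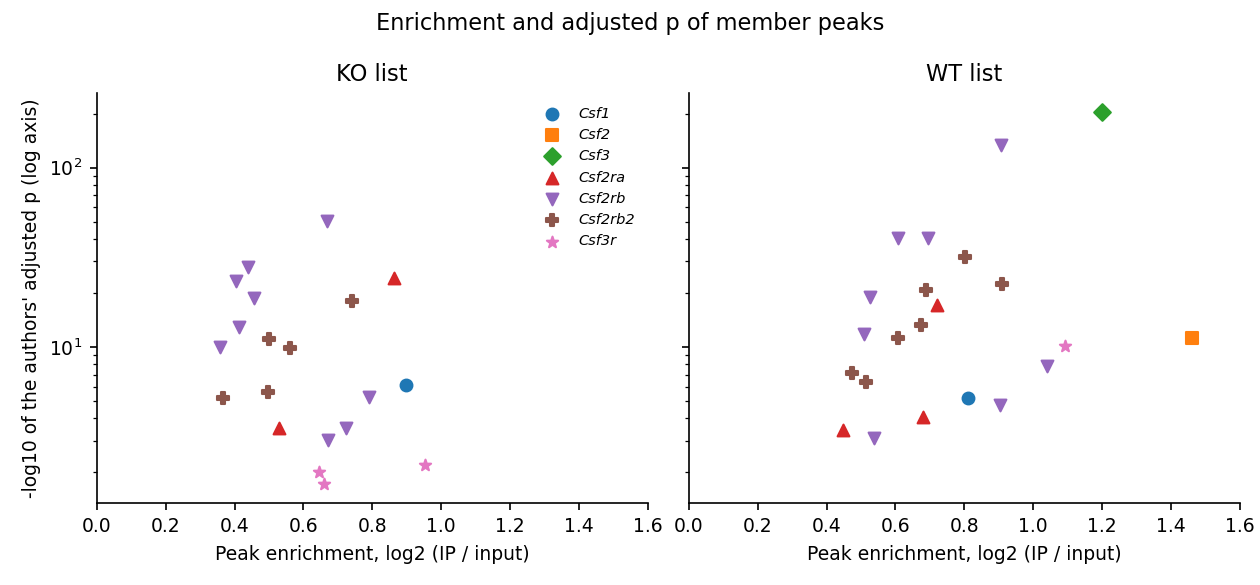
Enrichment (log2 of IP over input, horizontal axis) against the authors' adjusted p (minus log10, logarithmic vertical axis) for member peaks, KO list on the left and WT list on the right; symbols mark the genes, and the 3 Csf1 peaks with an adjusted p listed as 0 are not drawn. The Csf3 peak is the highest WT point drawn, and the 3 Csf3r peaks are the lowest points in KO.

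Csf2ra encodes the alpha subunit that gives the receptor its specificity for the Csf2 product. It was the only member whose strongest peak was higher in KO. In KO cells it had 2 peaks on chromosome 19: a coding-exon peak from 61225997 to 61226196 with a log2 of 0.53, and a 3' UTR peak from 61224207 to 61224631 with 0.86 (adjusted p = 4.46e-25). WT cells had 3: the coding-exon peak from 61225997 to 61226146 with 0.68, a 3' UTR peak of 100 bases with 0.45 that had no KO partner, and the main 3' UTR peak from 61224232 to 61224656 with 0.72 (adjusted p = 7.35e-18). The main peaks shared 94.1% of their bases. There KO was higher by 0.14, while at the coding exon it was lower by 0.15 (KO minus WT, -0.15), so the direction was not common to the gene. Against the shift of all genes the main difference stood further out, since 86.5% of genes had a more negative one. In rank, Csf2ra was above 28.0% of marked genes in KO and above 9.33% in WT, the lowest WT rank among the members.

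Csf2rb encodes the beta subunit shared by the receptors for the Csf2 product, interleukin-3 and interleukin-5, and carries the signal into the cell through JAK2. Csf2rb2 is its neighbour on mouse chromosome 15, transcribed from the opposite strand, and encodes a closely related beta subunit that serves interleukin-3 alone. The coding sequences are known to be very similar, and how the authors assigned reads that fit both is not given in the sources used here, so values of either gene in coding sequence may include reads of the other. These were the members with the most peaks: Csf2rb had 9 in KO and 8 in WT, and Csf2rb2 had 5 in KO and 7 in WT.

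The Csf2rb peaks fell into 3 zones along the gene. At the 5' end, KO cells had 1 peak from 78325827 to 78335736, annotated as 5' UTR, with a log2 of 0.67. WT cells covered the same bases with 2 peaks, of 0.54 from 78325827 to 78326031 and of 0.69 from 78326057 to 78335736. The 5' zone thus differed little, the long WT peak exceeding the KO peak by 0.02 (KO minus WT, -0.02).

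Within an intron, between 78337081 and 78338205, KO cells had 3 peaks of 0.67, 0.72 and 0.79. WT cells had 2 peaks in that intron, of 1.04 from 78337156 to 78337780 and of 0.90 from 78337831 to 78338205. The strongest Csf2rb peak of each list was among them, and no other member had an intronic peak. Intronic peaks made up 4.89% of the KO list and 5.58% of the WT list, with a median log2 of 0.66 in KO and 0.75 in WT, so the Csf2rb intron lay above the median of its class in both.

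At the 3' end the WT values were higher throughout. The coding-exon peak from 78348355 to 78348854 in KO had a log2 of 0.44 (adjusted p = 8.24e-29), and the one from 78348130 to 78348929 in WT had 0.91 (adjusted p = 8.80e-135). That difference of -0.47 was the most negative among the Csf2rb pairs. The 4 KO peaks in the 3' UTR ran from 0.36 to 0.46, and the 3 WT peaks there from 0.51 to 0.61. The last of them, which ends at 78353720 in both lists, had 0.41 in KO and 0.51 in WT. By its strongest peak, Csf2rb stood at 0.79 in KO and 1.04 in WT, a difference of -0.25, close to the median of all genes.

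Csf2rb2 showed the same layout without the intronic zone. Its 5' UTR peak, ending at 78305681 in KO and 78305606 in WT, had a log2 of 0.50 in KO and 0.61 in WT. A coding-exon peak had 0.37 in KO and 0.51 in WT. In the 3' UTR, KO cells had 3 peaks, of 0.50, 0.56 and 0.74, and WT cells had 5, from 0.47 to 0.91. The strongest of each set lay at the gene's last bases, from 78282507 to 78282706 in KO and to 78282756 in WT, with an adjusted p of 7.44e-19 in KO and 4.95e-23 in WT. Of the other 3' UTR stretches, 3 WT peaks, of 0.80, 0.47 and 0.69, had no KO partner. In strongest value Csf2rb2 stood at 0.74 in KO and 0.91 in WT, and its difference of -0.17 was less negative than the median of all genes.

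Csf3r encodes the receptor for the Csf3 product, which acts as a pair of identical chains. In KO cells it carried 3 peaks on chromosome 4: a 5' UTR peak from 126027194 to 126029955 with a log2 of 0.64, a coding-exon peak from 126043557 to 126043681 with 0.66, and a 3' UTR peak from 126044232 to 126044406 with 0.95. In WT cells it had 1, a 3' UTR peak of 800 bases from 126043632 to 126044431 with a log2 of 1.09. The fold enrichments were close, 1.94-fold in KO and 2.13-fold in WT, but the support was not. The adjusted p was 0.0063, 0.019 and 0.0099 for the 3' UTR, coding-exon and 5' UTR peaks in KO, and 7.53e-11 in WT. At an adjusted p of at most 0.001, Csf3r had no KO peak and would count with Csf2 and Csf3. That makes 3 of the 7 members in WT only, beside 1225 of the 12743 genes with a WT peak at that cutoff. The difference in strongest value was -0.14, and 59.0% of genes had a more negative one. Averaged over the peaks of each list it was -0.34, where the median of all genes was -0.17, so Csf3r then lay on the other side of the common shift. These means are over unlike peaks: 3 in KO, with a 5' UTR peak that has no WT partner, and 1 in WT.

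Side by side, 5 members could be set against each other in both genotypes. For 4 of them KO had the lower strongest value, as for 73.4% of all such genes, and 1 had the higher, beside 26.6%. None of the 5 differed by a log2 of 1 or more, beside 9.54% of all genes lower by that much and 0.714% higher. The median difference of the 5 was -0.17, with medians of 0.86 in KO and 1.04 in WT. Once the all-gene median was subtracted, 2 of 5 were lower in KO: Csf1 at -0.08 and Csf2rb at -0.0023, while Csf2rb2 stood at 0.08, Csf3r at 0.11 and Csf2ra at 0.39. The members lay on both sides of the all-gene median, which is not a shift of every gene.

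**Figure D4:**
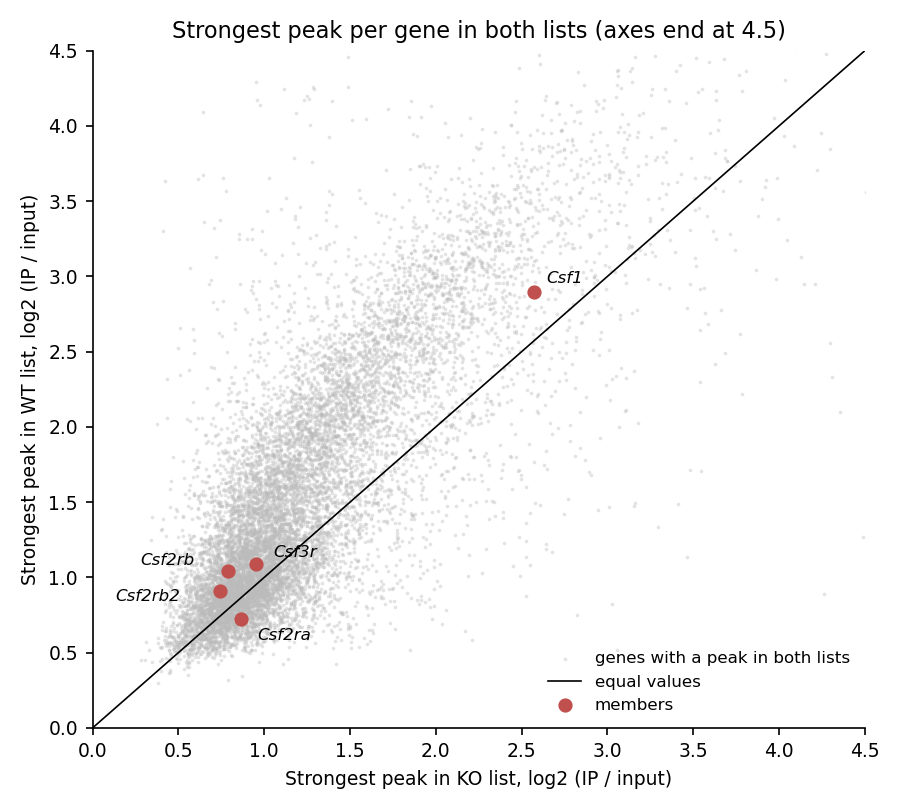
Strongest peak of each gene in the KO list (horizontal) and the WT list (vertical), both as log2 of IP over input, for 12320 genes marked in both; members are red, the line marks equal values, and 91 genes lie beyond the axes, which end at 4.5. Csf2ra is the only member below the line, and Csf1 lies far to the upper right of the receptors.

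Peak by peak, 20 of the 22 KO member peaks overlapped a WT peak on the same strand by at least 1 base, beside 72.9% of all KO peaks. Of the 23 WT member peaks, 17 overlapped a KO peak, beside 77.2% of all WT peaks. The KO peaks without a partner were the 5' UTR peak of Csf3r and 1 of the 3' UTR peaks of Csf2rb. The WT peaks without a partner were those of Csf2 and Csf3, 1 of Csf2ra and 3 of Csf2rb2, all of them annotated as 3' UTR. Overlapping peaks formed 22 pairs, and KO had the lower value in 19, where 70.8% of all such pairs in the lists had it. In 13 pairs each peak covered at least 50% of the other, and KO was lower in 11 of these, beside 69.8%. Peaks of 1 gene share their transcript and their libraries, so the pairs are not independent observations. Some pairs, such as the Csf1 coding-exon peak in KO and the WT 3' UTR peak, set a part of a peak against the whole of it.

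By annotated region, the 3' UTR held 10 of 22 member peaks in KO and 14 of 23 in WT, near its share of all peaks (51.4% in KO and 53.0% in WT). Coding exons held 5 in KO and 3 in WT, the 5' UTR 4 in each. The strongest peak was in the 3' UTR for every marked member except Csf2rb, whose strongest was intronic in both lists. In Csf1 and Csf2rb2 the peak nearest the 3' end reached the gene's last listed base in both lists, as did the WT peaks of Csf2 and Csf3.

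The genes whose pair of strongest values lay nearest to a member's, by Euclidean distance over the KO and WT log2 among 12319 other genes, were Socs5 and Kif3b for Csf1, at 0.022 and 0.066. For the receptors they were Zranb2 and Nudcd2 (Csf2ra), M6pr and Qser1 (Csf2rb), Ptges3 and Ncdn (Csf2rb2), and Micos13 and Ndfip1 (Csf3r), all at 0.0052 or less. A pattern of 2 values is easily shared, and Csf1 had the most distant neighbours.

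Receptors of this family signal through JAK kinases and STAT factors, RAS and phosphoinositide 3-kinase, under control of SOCS proteins and phosphatases. Of 38 genes listed for this signalling, 34 had a peak; Il3, Il5, Il5ra and Egr1 had none in either list. Marked in both were 33, of which 25 had the lower strongest value in KO and 8 the higher, a share of 75.8% beside the 73.4% of all genes. Their median difference was -0.40 (medians of 1.13 in KO and 1.53 in WT), more negative than the -0.25 of all genes. Restricted to peaks of at most 1000 bases it was 0.0034, with 12 of 25 genes lower in KO, while the median of all genes also moved, to -0.05, with 5447 of 9360 lower.

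In WT, the strongest peaks of that list belonged to Pik3r1, the regulatory subunit of phosphoinositide 3-kinase (2.32 in KO and 3.43 in WT), and to Mcl1, a survival factor (2.08 in KO and 3.38 in WT). Egr2, an early-response transcription factor, was the third in WT and the strongest in KO (3.16 in KO and 3.12 in WT). Cebpb, a myeloid transcription factor, had 1.95 in KO and 2.85 in WT. The most negative differences were those of Mcl1 (-1.30), the kinase gene Jak1 (-1.27, with 1.32 in KO and 2.59 in WT) and Sos1, an activator of RAS (-1.24, with 1.35 in KO and 2.59 in WT). At the other end stood a receptor subunit, a STAT factor and a kinase of the same pathway. Il3ra, the interleukin-3 alpha subunit, had 1.46 in KO and 0.77 in WT, Stat5a had 1.29 in KO and 0.74 in WT, and Jak2 had 1.87 in KO and 1.41 in WT. Socs1, a feedback inhibitor of JAK kinases, was the only gene listed in 1 genotype, with 0.91 in WT and no KO peak.

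**Figure D5:**
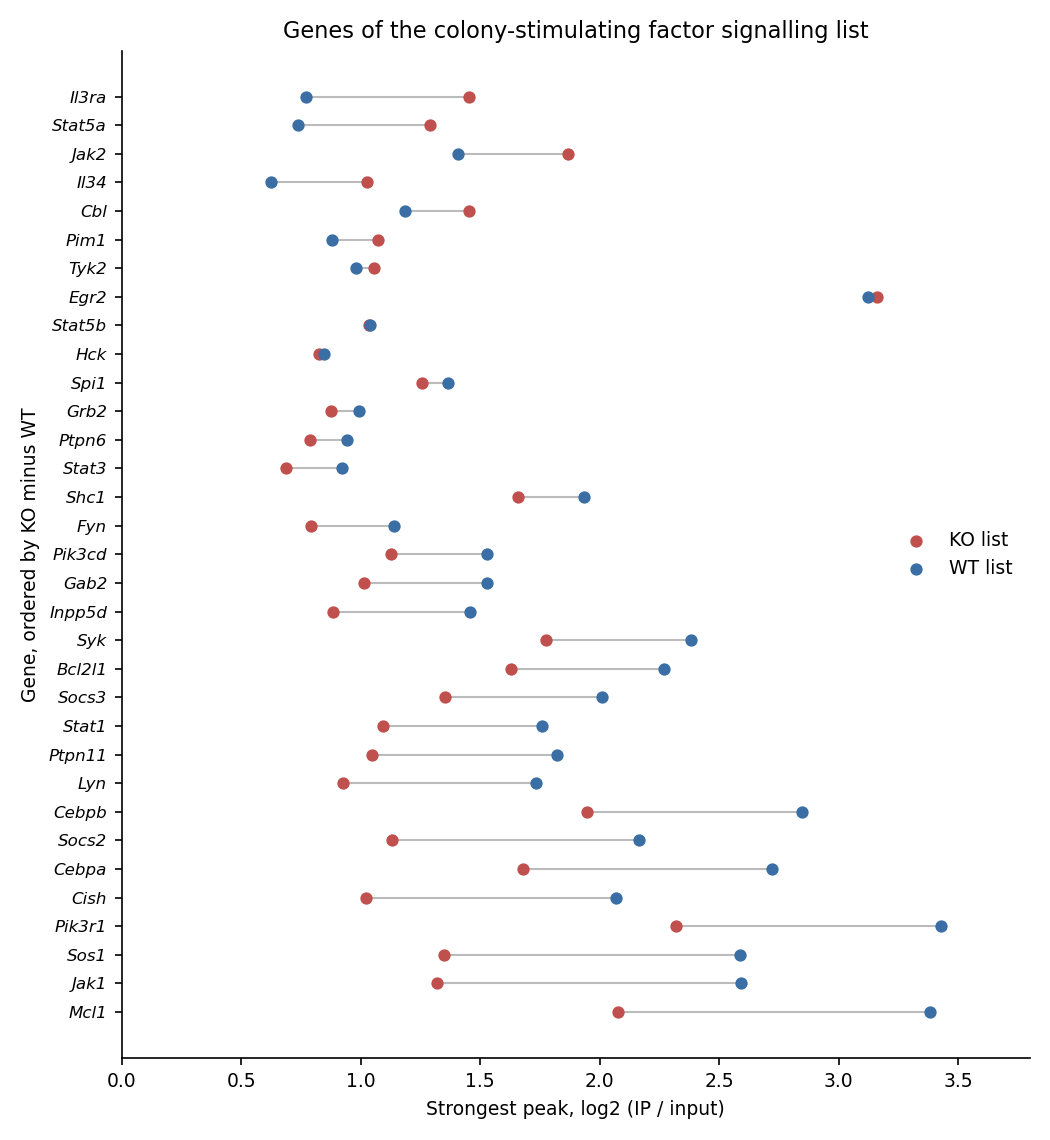
Strongest peak (log2 of IP over input) in the KO list (red) and the WT list (blue) for the 33 signalling genes marked in both, ordered from the most positive KO minus WT difference at the top to the most negative at the bottom. The red point lies to the left for 25 genes and to the right for 8, from Il3ra to Egr2.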

How the data were processed

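Poly(A) RNA of LPS-treated BV2 cells was fragmented and precipitated with an m6A antibody, per the labels' protocols. Tools named in the submitters' processing notes are HISAT2, StringTie, HOMER, edgeR, fastp and FastQC, without roles; the peak caller, build and any pooling of replicates are not stated there or in the file headers. The deposited values are headed as a log2 fold change and were read here as the IP over input enrichment of a peak. That reading rests on the sample titles, since the headers do not name IP or input. The adjusted p-value beside each is the authors' as well. Members were matched on the gene name. Starts were taken as counted from 0, since 5186 KO and 5098 WT peaks began at their gene's start once 1 was added, so positions are printed from 1. The deposited peak length instead follows starts counted from 1, for all 41153 KO and 36682 WT peaks. It is therefore 1 base longer than the widths given here. Of 13044 genes with a RefSeq symbol (GRCm38.p6), 13043 overlapped their position there. A peak's width includes introns. A gene's value is its strongest peak, and overlap means at least 1 base on the same strand (bedtools 2.31.1). With 1 list per genotype no test was possible. Named genes are the members, the 4 strongest signalling genes, those in 1 list only, the 3 largest differences each way, and the 2 nearest genes per member. Members and lists were chosen with earlier results of these data known. Steps ran in Python 3.11.15 with pandas 2.3.3, numpy 2.4.6 and matplotlib 3.10.9. The gene values and the overlap of peaks, but not the other steps, were tested on an altered copy of the WT list. In that copy genes were removed, values lowered and peaks moved.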

Additional observations from a re-analysis of the deposited data

How the results depend on the processing

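No paired analysis was possible because the lists hold 1 value per genotype; for the same reason no replicate could be left out. Limiting the lists to peaks inside the annotated gene, equalising the number of peaks or ignoring strand moved no member count or value by over 1.5 times. At 2-fold or more, 2 KO and 5 WT member peaks remained. Of these, the 2 KO peaks, both of Csf1, overlapped 1 WT peak, also of Csf1. The share over all peaks at that cutoff was not computed, so no reading about the members is drawn from this overlap. Only 1 member (Csf1) had a KO peak. Of the 5 members with a WT peak, 4 were in WT only, beside 2920 of 9345 genes. For 2 of these 4, a KO peak was listed below the cutoff, a log2 of 1. Csf3r lay just under it (0.95 in KO and 1.09 in WT) and Csf2rb further below (0.79 in KO and 1.04 in WT). In KO only were 1023 of the 7448 genes with a KO peak. Of the signalling genes, 5 of 26 with a KO peak were in KO only and 3 of 24 with a WT peak in WT only. Keeping only peaks with an adjusted p up to 0.001, the median difference was -0.21 for members and -0.51 for signalling genes, beside -0.26 for all genes. Of the signalling genes, 2 were in KO only and 0 in WT only. Of the 7 members with a WT peak, 3 were in WT only, beside 1225 of 12743 genes. In KO only were 0 members, beside 609 of 12127 genes. With peaks of at most 1000 bases, Csf2 lost its WT peak, leaving 1 of the 6 members with a WT peak in WT only. The member median was -0.14 and Csf1 turned to 0.086. Of the signalling genes, 12 were lower in KO and 4 were in KO only. Their median turned to 0.0034, beside -0.05 for all genes. Of all genes with a KO peak, 1737 of 11097 were in KO only, and 1452 of 10812 with a WT peak were in WT only. Averaged over each gene's peaks, the medians were -0.17 for members, -0.24 for signalling genes and -0.17 for all genes, but single members moved: Csf1 to -0.20, Csf2ra to 0.079 and Csf3r to -0.34. With 50% of both peaks required to overlap, 13 KO peaks had a WT partner. The share of all KO peaks with such a partner was not computed, so this count is not read as a result about the members. Counted as pairs rather than as peaks, overlaps fell from 22 to 13 for members and from 32614 to 19475 for all peaks. Centred on all genes, 2 members were lower in KO, the member median turned to 0.078, Csf2rb2 to 0.078 and Csf3r to 0.11; centring subtracts the median of all genes by construction. The cause of the other changes was not tested beyond the fewer peaks that each restriction leaves. Depth is unknown, so how many weak peaks a deeper library would add cannot be given.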
